A study of Bos taurus with 8 samples.

Results

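Expression of 10 genes for bile acid synthesis, conjugation and transport (HSD3B7, AKR1D1, SLC27A5, SLC27A2, BAAT, SLC10A1, ABCB11, ABCB4, ABCC2 and SLC51A) was examined in the liver of fetal calves whose dams received little or ample feed. The genes were chosen by name, with cytochrome P450 enzymes and nuclear receptors left out of the set. A probe belonged to a gene when its RefSeq accession did. Of the 10 genes, 7 had matched probes, 11 in all, among 43637 normalized probes, and all 11 probes were well above background on all 8 arrays. For BAAT, ABCB4 and ABCC2 no probe was matched, and these genes were not analysed here.

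Both groups were Japanese Black cattle fetuses taken at 8.5 months post-conception (day 260 ± 8.3 of gestation). The dams of the low-nutrition (LN) group were fed 60% of their nutritional requirement during gestation, and those of the high-nutrition (HN) group 120%. The LN fetuses are called L5, L6, L8 and L9 and the HN fetuses L1, L2, L3 and L10. There was no group fed the requirement itself. All dams were inseminated with male-sorted semen of the same sire, and the study chose its LN fetuses for low and its HN fetuses for high body weight, so body weight was part of the choice of animals. The series also speaks of RNA pooled within each group. The 8 arrays, which carry a fetus label each, are treated here as 8 fetuses, and if they were not, the p-values measure only technical spread.

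Bile acids are made from cholesterol in hepatocytes. Enzymes change the sterol rings, peroxisomal enzymes shorten the side chain, and the product is activated with coenzyme A and joined to glycine or taurine. Pumps in the canalicular membrane then drive bile acids into bile, and carriers in the membrane facing the blood take returning bile acids up again. Before birth, bile acids of the fetus are largely cleared across the placenta.

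Values are log2 signals, normalized so that all arrays share the same distribution, and a difference is LN minus HN on that scale. A gene is represented by its probe with the highest mean signal. In each sentence of values the LN fetuses come in the order L5, L6, L8 and L9 and the HN fetuses in the order L1, L2, L3 and L10. Between 32635 and 33371 of 43803 spots were well above background in LN and between 33254 and 34369 in HN, and 0 spots were saturated. All LN arrays lay on one slide and all HN arrays on another, so slide and group cannot be told apart. How precisely a difference can be measured is limited by having 8 arrays.

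None of the measured genes of bile acid synthesis, conjugation and transport changed between LN and HN by the tests used. The log2 signal was on average higher in LN for 3 genes (SLC27A5, ABCB11 and SLC10A1) and lower for 4 (SLC27A2, SLC51A, AKR1D1 and HSD3B7). By limma, 0 of 7 genes passed an adjusted p of 0.05, as did 0% of 10860 detected genes. At an unadjusted p of 0.05 the count was 0 of 7, against 6.05% of all detected genes. The 2 groups overlapped for all 7 genes, while 4.14% of all detected genes had groups that did not overlap. The median difference over the 7 genes was -0.02, beside 0.0075 over all detected genes, and the median size of the difference was 0.12, beside 0.14. The share of genes lower in LN was 48.4% over all detected genes. Each of the 7 differences was smaller than the larger of its 2 group SDs. The 95% intervals leave room for changes of either sign: for SLC51A they allow a ratio of LN to HN signal between 0.440 and 1.74, and for ABCB11 between 0.697 and 1.80. The sign of each of the 7 differences also turned when at least 1 fetus was left out: without LN fetus L5, 2 of 7 genes were lower in LN, and without LN fetus L9, all 7 were. Bulk liver RNA was measured, so fewer cells of a type and less RNA per cell cannot be told apart.

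**Figure D1:**
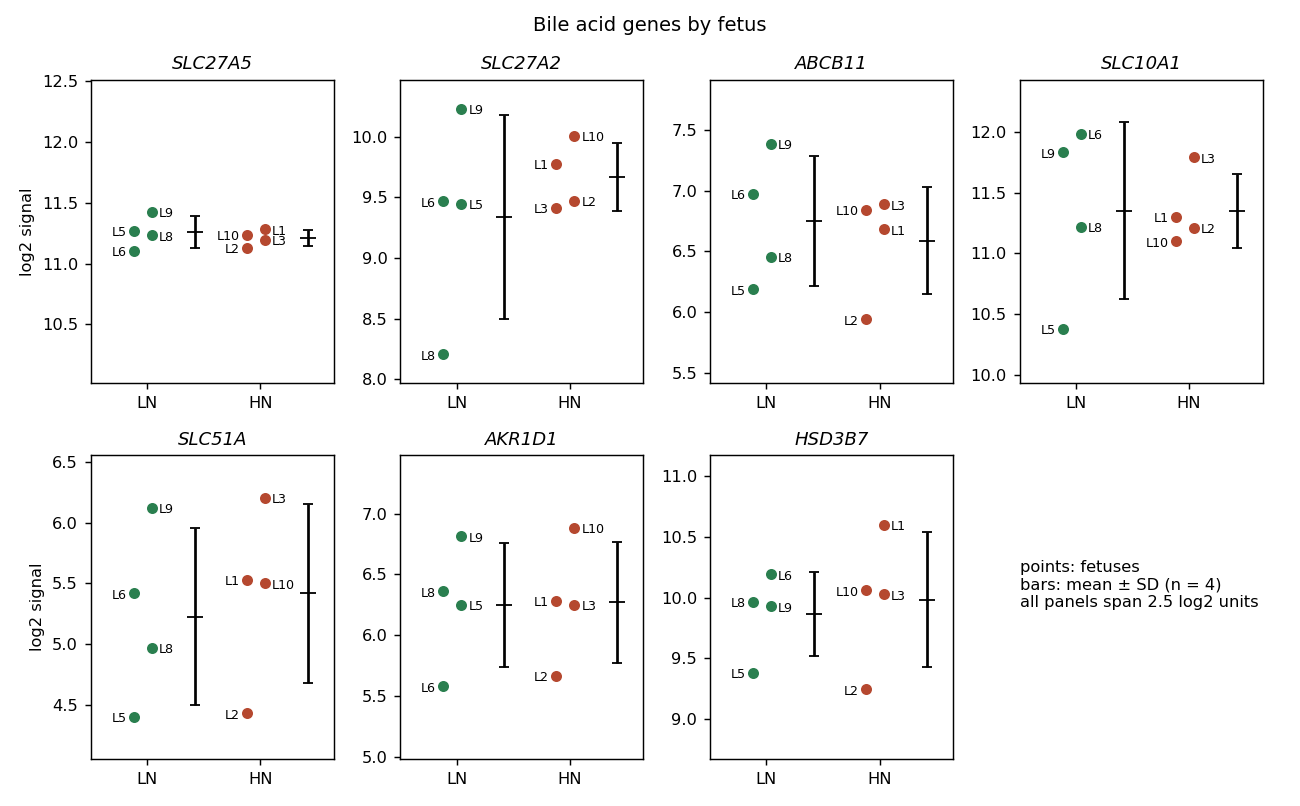
Log2 signal of 7 bile acid genes in 8 fetuses. Each point is a fetus (green LN, red HN) and the black bars give the mean ± SD (n = 4). Every panel spans the same height in log2 units. The groups overlap in each panel, and SLC27A5 has the narrowest spread at the probe shown, with 0.32 log2 units between its lowest and its highest fetus.

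HSD3B7 (NM_001034696) acts early on the sterol ring, where it oxidises the 3-hydroxyl group. Its log2 signal was 9.38, 10.19, 9.97 and 9.93 in LN and 10.60, 9.24, 10.03 and 10.06 in HN. The highest and the lowest value were both of HN fetuses, L1 and L2, so all LN values lay inside the HN range. The difference was -0.12 (standard error 0.29, 95% interval -0.77 to 0.54), with an exact permutation p of 0.83 and a limma adjusted p of 0.958. It was -0.36 without HN fetus L2, -0.22 without LN fetus L6, 0.05 without LN fetus L5 and 0.09 without HN fetus L1. The other probe of the gene differed by -0.05. Across the 8 fetuses the probes of HSD3B7 had a Pearson's r of 0.60 (exact permutation p = 0.104, adjusted p = 0.130 over 5 pairs of probes).

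AKR1D1 (NM_001192358) reduces the double bond of the ring and so sets its bent shape. AKR1D1 had a log2 signal of 6.25, 5.58, 6.36 and 6.81 in LN and 6.29, 5.66, 6.25 and 6.88 in HN. In each group 1 fetus was low (L6 and L2) and 1 was high (L9 and L10), and the groups had nearly the same spread, with an SD of 0.51 in LN and 0.50 in HN. The difference was -0.02 (standard error 0.31, 95% interval -0.72 to 0.68), with an exact permutation p of 0.914 and a limma adjusted p of 0.994. Leaving out L6 (LN) gave 0.21 and L10 (HN) 0.19, while leaving out L9 (LN) gave -0.21 and L2 (HN) -0.22. It was -0.15 with 75th percentile scaling.

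SLC27A5 (NM_001103273), the bile acid CoA ligase of liver, activates bile acids before they are conjugated. Its log2 signal was 11.27, 11.10, 11.23 and 11.42 in LN and 11.28, 11.13, 11.20 and 11.23 in HN. L9 was highest and L6 lowest, both LN, and the HN fetuses lay between them. The difference was 0.05 (standard error 0.11, 95% interval -0.21 to 0.30), which is a ratio of LN to HN signal of 1.03 (95% interval 0.866 to 1.23). The exact permutation p was 0.600 and the limma adjusted p 0.956. The gene had the shortest interval of the 7, and its other probes differed by -0.0063 and 0.03. With a fetus left out the difference lay between -0.0090 (without L9) and 0.10 (without L6).

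SLC27A2 (NM_001192863) is an acyl-CoA synthetase of very long chain fatty acids that also activates bile acid precursors. Log2 signals of SLC27A2 were 9.45, 9.47, 8.21 and 10.23 in LN and 9.78, 9.47, 9.41 and 10.01 in HN. The lowest and the highest fetus were both LN, L8 and L9, which lay 2.02 log2 units or 4.07-fold apart. The SD was 0.84 in LN and 0.28 in HN, so it was 3.02 times as large in LN. This ratio was 1.61 and the span 1.76-fold without LN fetus L8, and the difference in spread was not tested. The difference of the means was -0.33 (standard error 0.38, 95% interval -1.19 to 0.52), with an exact permutation p of 0.571 and a limma adjusted p of 0.904. In size it was the largest of the 7 genes, but with 75th percentile scaling it was -0.34, beside -0.37 for SLC51A. With a fetus left out it lay between -0.63 (without LN fetus L9) and 0.05 (without LN fetus L8).

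SLC10A1 (NM_001046339) encodes NTCP, the sodium-dependent carrier that takes conjugated bile acids up from blood. Its log2 signal was 10.38, 11.98, 11.22 and 11.83 in LN and 11.30, 11.21, 11.79 and 11.10 in HN. L5 was lowest and L6 highest, both LN, and the SD was 0.73 in LN and 0.31 in HN, with 0.41 in LN without L5. The group means were 11.35 in both, a difference of 0.0029 (standard error 0.34, 95% interval -0.77 to 0.78), with an exact permutation p of 0.971 and a limma adjusted p of 0.999. Leaving out L5 gave 0.33, while the difference was below 0 without L6 (-0.21), L9 (-0.16), L1 (-0.01), L2 (-0.04) or L10 (-0.08). The other probe of SLC10A1 differed by 0.05. Both probes ordered the fetuses alike, with a Pearson's r of 0.90 (exact permutation p = 0.00223, adjusted p = 0.0112 over 5 pairs of probes) and a Spearman's rho of 0.95.

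ABCB11 (NM_001192703) encodes BSEP, the pump that moves bile acids into the bile canaliculus. ABCB11 signals were 6.19, 6.97, 6.46 and 7.39 in LN and 6.68, 5.94, 6.89 and 6.84 in HN on the log2 scale. L9 of LN was highest and L2 of HN lowest, 2.72-fold apart, or 1.74-fold with another background correction (normexp). The difference was 0.16 (standard error 0.30, 95% interval -0.52 to 0.85), with an exact permutation p of 0.629 and a limma adjusted p of 0.943. It was -0.05 without LN fetus L9 and also -0.05 without HN fetus L2, but 0.35 without LN fetus L5, and 0.04 with 75th percentile scaling.

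SLC51A (NM_001025333) encodes the alpha subunit of OST, which carries bile acids out across the membrane facing the blood. SLC51A had a log2 signal of 4.40, 5.42, 4.97 and 6.12 in LN and 5.53, 4.43, 6.21 and 5.50 in HN. A low fetus in each group (L5 and L2) and a high one in each (L9 and L3) gave an SD of 0.73 in both groups. The difference was -0.19 (standard error 0.44, 95% interval -1.18 to 0.80), with an exact permutation p of 0.657 and a limma adjusted p of 0.953. With a fetus left out it lay between -0.52 (without HN fetus L2) and 0.09 (without LN fetus L5), with -0.49 without L9 and 0.07 without L3. It was -0.37 with 75th percentile scaling and -0.06 with normexp. SLC51B, which encodes the beta subunit and was picked for this role after its values were seen, had a log2 signal of 12.65, 12.21, 12.37 and 12.28 in LN and 12.02, 11.93, 12.31 and 12.51 in HN. Its difference was 0.18 (95% interval -0.19 to 0.56, limma adjusted p = 0.872).

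**Figure D2:**
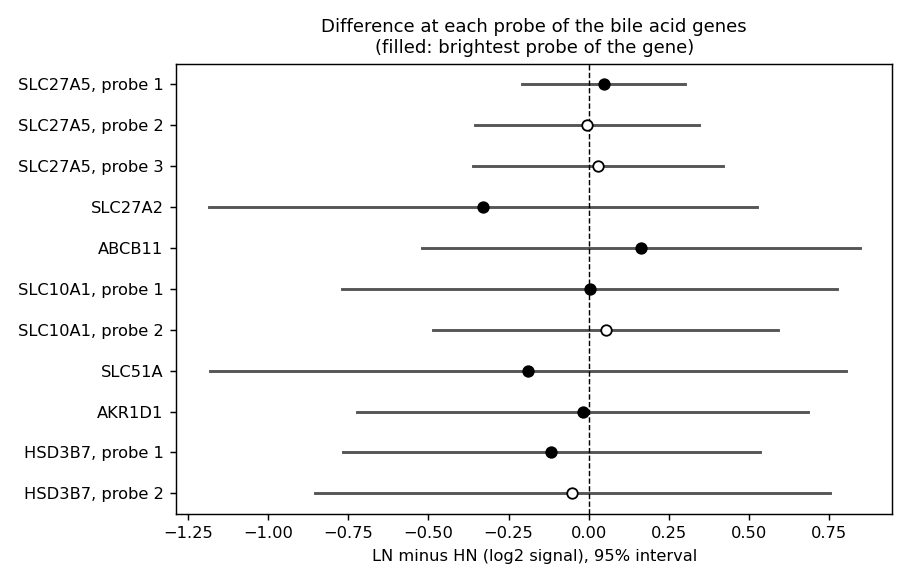
Difference between the groups at each of the 11 probes of the 7 bile acid genes, on the x axis as LN minus HN in log2 signal, with its 95% interval. Filled circles are the probe with the highest mean signal and open circles the other probes. Every interval includes 0, and 6 of the 11 probes lie below 0.

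The fetuses differed from each other more than the groups did. L9 of LN had the highest log2 signal for 3 of the 7 genes (SLC27A5, SLC27A2 and ABCB11) and was among the highest 2 fetuses for 6 of 7. L2 of HN was among the lowest 2 for 5 of 7 and L5 of LN for 4 of 7. The spread within groups exceeded that of the median gene for 6 of the 7 genes in LN (median SD 0.222 over all detected genes) and for 6 of 7 in HN (median SD 0.212), with the chosen probe of SLC27A5 below it in both. The other probes of SLC27A5 had SDs of 0.25 and 0.26 in LN and of 0.15 and 0.23 in HN, so its narrow spread depended on the probe. Between the lowest and the highest fetus, SLC51A spanned 3.50-fold, SLC10A1 3.05-fold (1.85-fold without L5), HSD3B7 2.56-fold and AKR1D1 2.47-fold. With normexp the span was 1.63-fold for SLC51A, 2.99-fold for SLC10A1 and 2.39-fold for HSD3B7, and that of AKR1D1 was 0.59 on the log2 scale in place of 1.31, so the order of these spans changed with the background correction.

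Whether the genes rose and fell together across fetuses was examined with Pearson's r and Spearman's rho over the 8 fetuses for all 21 pairs of genes. The correlation was positive for 19 of 21 pairs, with a median r of 0.44 and a range from -0.15 to 0.90. By exact permutation tests, 4 pairs had an unadjusted p of at most 0.05 and 0 passed after Benjamini-Hochberg adjustment over the 21. These 4 were ABCB11 with SLC51A, SLC27A5 with AKR1D1, SLC10A1 with SLC51A, and ABCB11 with SLC10A1. With permutations within groups, on deviations from the group means, 3 pairs had an unadjusted exact p of at most 0.05 and 0 passed adjustment, since ABCB11 with SLC10A1 then had an exact permutation p of 0.0660. Among the 4, 3 pairs join transporters, and 1 joins the enzymes SLC27A5 and AKR1D1. Each slide held 4 fetuses of 1 group, too few for a correlation of its own.

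**Figure D3:**
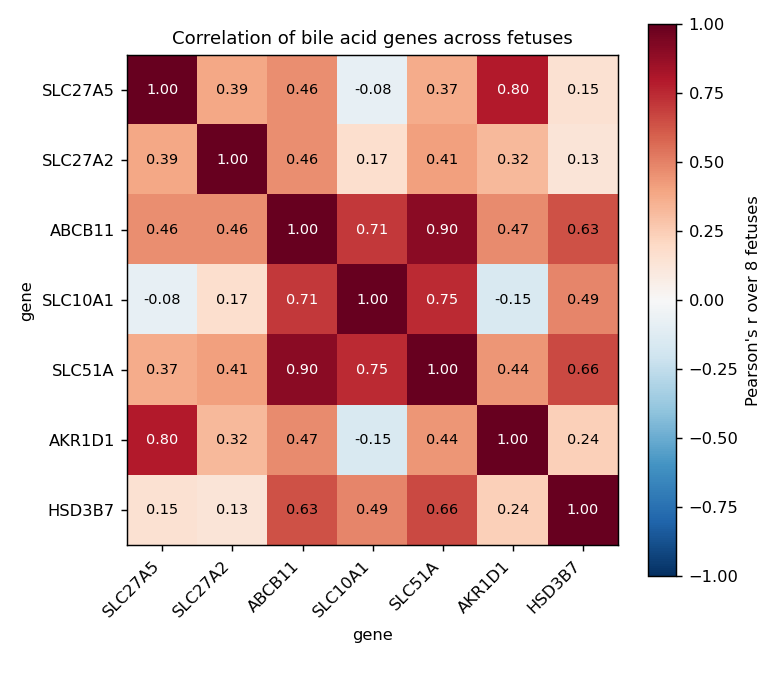
Pearson's r over 8 fetuses for each pair of the 7 bile acid genes, with genes on both axes and r given by the colour and the printed value. ABCB11, SLC10A1 and SLC51A have an r between 0.71 and 0.90 with each other, and the lowest r is -0.15 for SLC10A1 and AKR1D1.

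The canalicular pump gene ABCB11 and the basolateral carrier gene SLC51A had the highest r, 0.90 (exact permutation p = 0.00263, adjusted p = 0.0552), with a rho of 0.76 (exact permutation p = 0.0368, adjusted p = 0.321). Fetuses L5 and L2 were low and L9 was high for both genes. Without the fetuses farthest from the median of ABCB11, L9 and L2, r was 0.85, and with each fetus left out in turn it lay between 0.87 and 0.96. On deviations from the group means, r was 0.96 (exact permutation p = 0.00347 over permutations within groups, adjusted p = 0.0729). With 75th percentile scaling in place of quantile normalization, r was 0.91 with an adjusted p of 0.0495 by the exact permutation test. The adjusted p of rho was then 0.152 by the same test. With normexp, r was 0.87 (exact permutation test, adjusted p = 0.148). With the log2 values deposited by the authors it was 0.90 (exact permutation test, adjusted p = 0.0552). These scalings of the correlation were chosen after seeing the data.

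The median log2 signal of an array before normalization, here called its brightness, was set against each of the 7 genes, and 0 of these relations passed adjustment by the exact permutation test. Brightness was 6.65, 5.97, 6.43 and 6.09 in LN and 6.57, 6.71, 6.38 and 6.30 in HN. Its relation with ABCB11 had the largest r in size, -0.86 (exact permutation p = 0.00774, adjusted p = 0.217 over 56 relations of the 7 genes with brightness and 7 lists of cell type markers) and a rho of -0.93. Without the dimmest arrays, L6 and L9, r was -0.87. The r of brightness was -0.74 with SLC10A1 (exact permutation p = 0.0346, rho -0.69) and -0.45 without L6 and L9. With SLC51A it was -0.64 (exact permutation p = 0.0898, rho -0.55). After brightness was regressed out of both genes, r between ABCB11 and SLC51A was 0.89 and that between SLC10A1 and SLC51A fell to 0.52 (chosen after seeing the data, no p computed). It was not computed for ABCB11 and SLC10A1, both with a larger r in size with brightness than SLC51A.

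**Figure D4:**
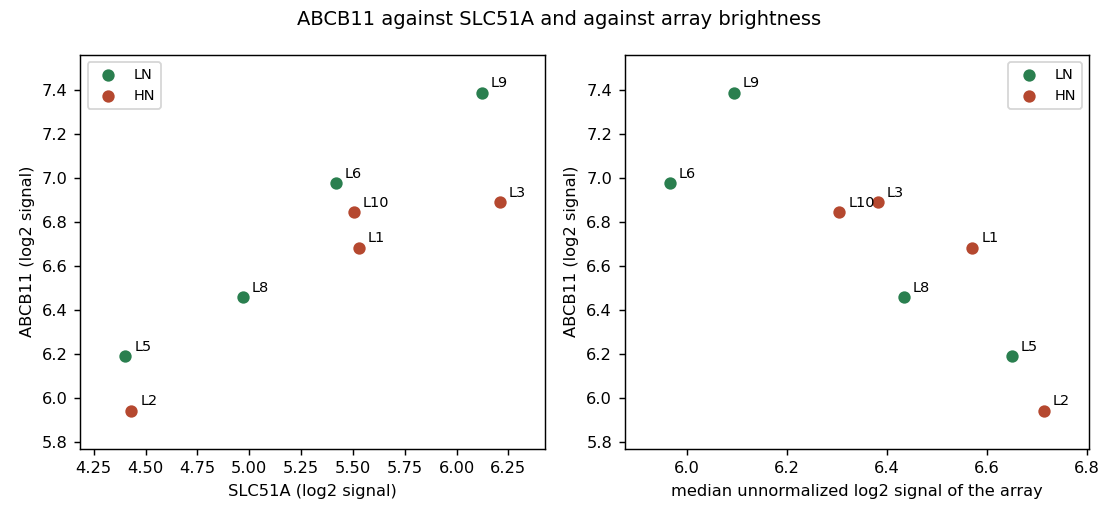
Log2 signal of ABCB11 (y axis) against that of SLC51A (left) and against the brightness of the array, its median log2 signal before normalization (right). Each point is a fetus, green for LN and red for HN. ABCB11 is highest in L9 and lowest in L2. Its r is 0.90 with SLC51A and -0.86 with brightness, and neither passed adjustment.

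The other pairs rested on lower correlations. For SLC27A5 and AKR1D1, r was 0.80 (exact permutation p = 0.0162, adjusted p = 0.170) and rho 0.74, and r was 0.62 without L6 and L9. For SLC10A1 and SLC51A, r was 0.75 (exact permutation p = 0.0340, adjusted p = 0.238) and rho 0.62, and r was 0.78 without L5 and L6. For ABCB11 and SLC10A1, r was 0.71 (exact permutation p = 0.0468, adjusted p = 0.246) and rho 0.79, and r was 0.88 without L9 and L2. Both of these genes had a negative r with brightness, as given above.

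The tissue label was checked against lists of cell type markers, whose signals were summed on the linear scale and are given as log2. All 7 of 7 hepatocyte markers, among them TF and TTR, were well above background on all arrays, and the list lay between 20.68 and 20.77 in LN and between 20.61 and 20.74 in HN. All arrays share the same distribution, which holds the brightest probes nearly constant, so this narrow range cannot measure hepatocyte content. Cholangiocyte markers (6 of 7 measured, KRT19 and EPCAM brightest) lay between 13.25 and 13.56 in LN and between 13.24 and 13.43 in HN. Of 8 erythroid markers 5 were detected, with AHSP and HBM brightest, and SLC4A1, EPB42 and KLF1 were not well above background on enough arrays. The erythroid list was 12.63 in L5, between 8.52 and 9.31 in the other LN fetuses and between 8.15 and 9.17 in HN. Macrophage markers (5 of 6, CD5L and CSF1R), endothelial markers (6 of 6, STAB1 and PECAM1), stellate and fibroblast markers (6 of 6, COL3A1 and DCN) and lymphocyte markers (5 of 6, CD3D and CD79A) overlapped between LN and HN. The macrophage list lay between 15.66 and 16.59 in LN and between 15.76 and 16.35 in HN, and the stellate and fibroblast list between 16.22 and 16.51 in LN and between 16.10 and 17.24 in HN. By limma, 0 of the 40 detected markers passed an adjusted p of 0.05, and 2 had an unadjusted p of at most 0.05, a share near the 6.05% of all genes tested. The 2 markers include KRT7, with a difference of 0.67. The cholangiocyte list that holds KRT7 had 3 genes higher and 3 lower in LN, with a median difference of -0.0061. Genes higher and lower in LN numbered 6 and 1 for hepatocyte, 5 and 0 for erythroid, and 1 and 4 for macrophage markers. They numbered 4 and 2 for endothelial, 1 and 5 for stellate and fibroblast, and 0 and 5 for lymphocyte markers. Over the 40 markers, 20 were higher and 20 lower.

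The marker lists were set against the 7 genes in the same way, and 0 of these relations passed adjustment. The lymphocyte list had an r of 0.88 with SLC51A (exact permutation p = 0.00518, adjusted p = 0.217), a rho of 0.88, and an r of 0.94 without L5 and L8. This list lay between 12.38 and 12.83 in LN and between 12.56 and 12.99 in HN. The r of the lymphocyte list was 0.73 with ABCB11 and 0.75 with SLC10A1. The endothelial list, between 13.09 and 13.77 in LN and between 12.98 and 13.57 in HN, had an r of 0.75 with ABCB11 and 0.74 with SLC10A1. HSD3B7 had an r of -0.74 with the hepatocyte list (rho -0.71), in which AFP varied most within groups (SD 0.61 in LN and 0.60 in HN). How far this r rests on AFP was not tested. For these 5 relations the exact permutation p lay between 0.0329 and 0.0417 and the adjusted p between 0.277 and 0.292, and rho with the lymphocyte and endothelial lists was 0.86 for ABCB11 in both and 0.74 and 0.67 for SLC10A1. Of all 56 relations, 8 had an unadjusted exact permutation p of at most 0.05, and the part of these cells in the levels of the transporter genes was not tested.

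Beyond the set, 41 further genes of the pathway were looked up in 4 lists, and 32 had a detected probe. Of these, 8 had a higher and 24 a lower mean log2 signal in LN, beside 48.4% of all detected genes lower in LN. By limma, 0 of 32 passed an adjusted p of 0.05, and 3 had an unadjusted p of at most 0.05: CH25H, higher in LN, where 3.3% of all detected genes were called in this direction, and ACOX2 and NR1I3, lower in LN, where 2.75% were. This count was 5 without LN fetus L9 and 5 without HN fetus L2. The groups did not overlap for 3 of 32 genes (ACOX2, CH25H and HSD17B4), beside 4.14% of all detected genes.

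Side-chain and conjugation enzymes (8 of 9 detected) had a median difference of -0.02, with 3 genes higher and 5 lower in LN. ACOX2, the peroxisomal oxidase of the bile acid side chain, had a log2 signal of 12.58, 12.57, 12.70 and 12.74 in LN and 12.91, 13.04, 12.99 and 13.23 in HN. All LN fetuses lay below all HN fetuses. The study itself singled out ACOX2 from these arrays and also reported it as lower in LN by qPCR. The difference was -0.39 (standard error 0.12, 95% interval -0.66 to -0.13, limma unadjusted p = 0.00795, adjusted p = 0.760, exact permutation p = 0.0286, the smallest that 4 fetuses against 4 can give). CH25H, a cholesterol hydroxylase that makes an oxysterol, was 9.05, 9.05, 9.39 and 10.49 in LN and 8.86, 8.80, 7.55 and 7.30 in HN. All LN fetuses lay above all HN fetuses, by little between L6 or L5 and L1. Its difference was 1.37 (standard error 0.45, 95% interval 0.35 to 2.39, limma unadjusted p = 0.0145, adjusted p = 0.760, exact permutation p = 0.0286). HSD17B4, the multifunctional enzyme that follows ACOX2 in the side-chain pathway, differed by 0.21 (standard error 0.11, limma adjusted p = 0.798, exact permutation p = 0.0286), but by 0.03 when its detected probes were averaged.

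The P450 enzymes of bile acid synthesis (4 of 6 detected) had a median difference of -0.23, a value that includes CYP7A1. CYP7A1, the rate-limiting enzyme of the classic pathway, was well above background on 1 of 4 LN and 3 of 4 HN arrays, so its difference is partly one against background. The 3 genes above background on all arrays had a median difference of -0.13. Its log2 signal was 1.37, 1.45, 4.72 and 2.13 in LN and 3.80, 3.90, 0.97 and 4.86 in HN, so L8 of LN and L3 of HN lay with the other group. The difference was -0.96 (standard error 0.96, limma adjusted p = 0.885), and -0.17 with normexp. With a fetus left out it lay between -1.77 (without L3) and -0.47 (without L10). CYP27A1, the mitochondrial sterol hydroxylase that starts the alternative pathway, differed by -0.32 (standard error 0.24, limma adjusted p = 0.847), between -0.49 without L5 and -0.13 without L6. CYP46A1, a cholesterol side-chain hydroxylase, differed by -0.13 (limma adjusted p = 0.925). It differed by -0.35 with 75th percentile scaling and by -0.0019 with normexp, and with a fetus left out by between -0.29 (without L1) and 0.02 (without L10).

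Other transporters (11 of 14 detected) had a median difference of -0.17, with 4 higher and 7 lower in LN. SLCO1A2, an organic anion uptake carrier, differed by -0.41 (standard error 0.19, limma adjusted p = 0.785, exact permutation p = 0.143), between -0.58 without L9 and -0.31 without L8. The unadjusted limma p of SLCO1A2 was 0.0578, but 0.00328 without L9. It was 0.0471 with trend and robust settings in eBayes and 0.0489 when its detected probes were averaged. FABP1, the liver fatty acid binding protein, differed by -0.56 (standard error 0.36, limma adjusted p = 0.824), between -0.76 without L5 and -0.17 without L6. SLCO2B1, a further organic anion carrier, differed by -0.23 (limma adjusted p = 0.865), between -0.42 without L2 and -0.14 without L10.

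Regulators of bile acid genes (9 of 12 detected) had a median difference of -0.09, with 1 higher and 8 lower in LN. NR1I3, the nuclear receptor CAR, had a log2 signal of 7.15, 6.50, 7.34 and 7.84 in LN and 8.05, 7.72, 8.11 and 8.63 in HN. Only L9 of LN and L2 of HN crossed between the groups. The difference was -0.92 (standard error 0.29, 95% interval -1.58 to -0.25, limma unadjusted p = 0.0124, adjusted p = 0.760, exact permutation p = 0.0571). NR5A2, also called LRH-1, differed by -0.27 (limma adjusted p = 0.861), between -0.37 without L8 and -0.05 without L6. GPBAR1, the membrane receptor for bile acids, differed by -0.22 (limma adjusted p = 0.943), between -0.43 without L6 and 0.13 without L9.

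**Figure D5:**
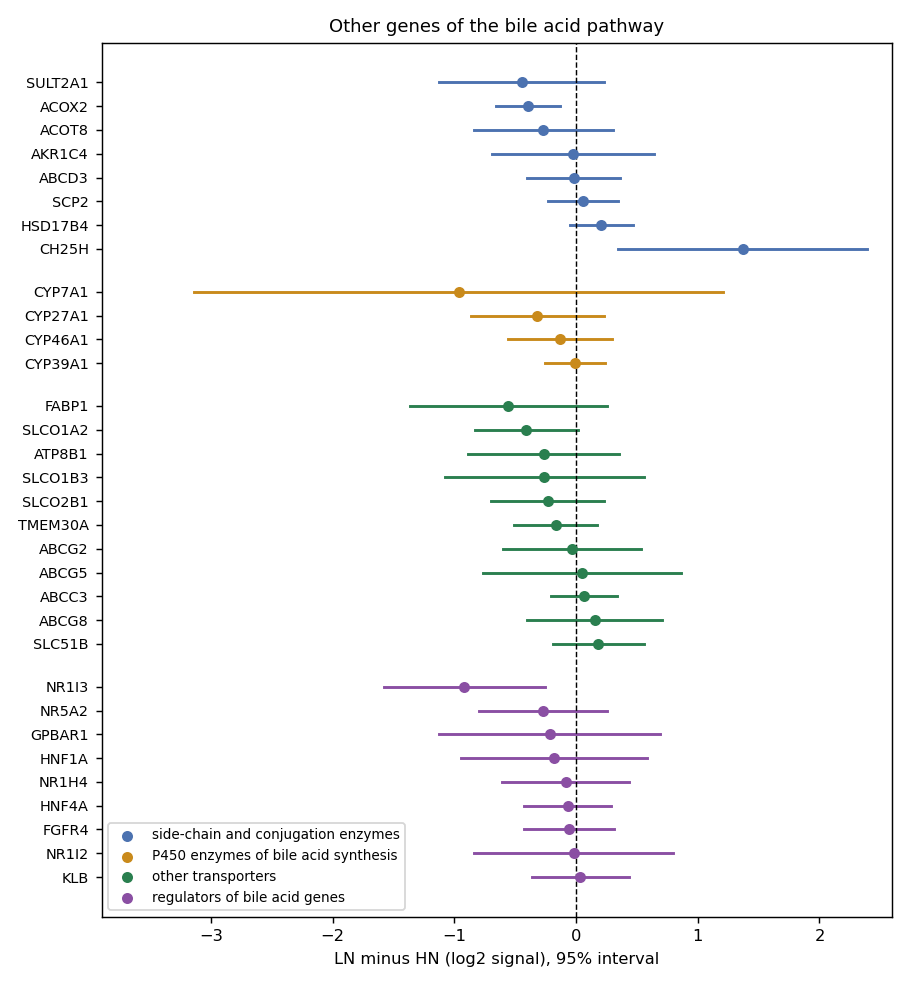
Difference between the groups for the 32 detected genes of the 4 other lists of the bile acid pathway, on the x axis as LN minus HN in log2 signal, with the 95% interval as a line. Colours give the list. The intervals of CH25H, ACOX2 and NR1I3 exclude 0 before adjustment, and 24 of the 32 points lie below 0, beside 48.4% of all detected genes.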

How the data were processed

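RNA from the liver of 8 fetuses (4 LN, 4 HN) was measured on Agilent bovine arrays in 1 colour. The authors deposited scanner files in which the intensity of each spot is background-subtracted by Feature Extraction 11.0.1.1, without normalization between arrays. A second file deposited by the authors gives log2 values of 31068 probes, as many as were above background on all 8 arrays; their methods name quantile normalization.

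Control spots and 16 outlier probes were left out, and log2 intensities of 43637 probes were quantile normalized. Detection required a signal well above background on 4 or more arrays, which 33439 probes had. RefSeq mRNA accessions marked 27347 probes, and 26699 of these could be matched to genes of the reference table (ARS-UCD2.0). The array was designed on another build, so no coordinates are given. Groups came from the sample labels. The group difference was fitted in limma 3.58.1 (R 4.3.3) with lmFit and eBayes, as a 2-sided test with Benjamini-Hochberg adjustment over all detected probes. Exact permutation tests (2-sided, 70 divisions of the fetuses or 40320 pairings) used numpy 2.4.6 and Python 3.11.15. Functions were tested on simulated data.

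The members and lists were chosen with earlier results of these data known. Named genes are the members, the 3 genes per pathway list with the lowest limma p and the 2 brightest per marker list (hepatocyte, cholangiocyte, erythroid, macrophage, endothelial, stellate and fibroblast, lymphocyte). Exceptions are SLC51B, KRT7, AFP and the undetected erythroid markers SLC4A1, EPB42 and KLF1, named after their values were seen. For 1 marker gene, included in the counts, no values are reported here. Alternatives were scaling to the 75th percentile, normexp (offset 50), the authors' table, no filter, detection on every array, trend and robust settings in eBayes, averaging the detected probes of a gene, and each fetus left out. For the correlations, all but the deviations from group means were chosen after seeing the data. A planned search for promoter motifs was not run.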

Additional observations from a re-analysis of the deposited data

How the results depend on the processing

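For the 7 bile acid genes, the count at an unadjusted limma p of 0.05 and the count of genes whose groups do not overlap stayed 0 under every alternative run, 4 genes were lower in LN under the 7 alternatives that kept all fetuses, and under these 7 the sign of the difference turned for 0 of the 7 genes. The median over the 7 genes lay between -0.11 (75th percentile scaling, which moved the median of all genes to -0.023) and -0.02. With each fetus left out in turn it lay between -0.22 and 0.05, and between 2 and 7 of the genes were lower in LN. The lowest and highest differences with a fetus left out were -0.21 and 0.33 for SLC10A1, -0.52 and 0.086 for SLC51A, -0.36 and 0.089 for HSD3B7, -0.22 and 0.21 for AKR1D1, -0.053 and 0.35 for ABCB11, -0.63 and 0.047 for SLC27A2, -0.0090 and 0.10 for SLC27A5, -0.29 and 0.020 for CYP46A1 and -0.43 and 0.13 for GPBAR1. With 75th percentile scaling the differences were -0.15 for AKR1D1, -0.37 for SLC51A, 0.042 for ABCB11 and -0.35 for CYP46A1, and with normexp they were -0.064 for SLC51A, 0.11 for ABCB11 and -0.0019 for CYP46A1. The unadjusted limma p lay between 0.00229 and 0.0229 for ACOX2, between 0.00863 and 0.0419 for CH25H and between 0.00318 and 0.0367 for NR1I3 over all alternatives, and the count of other pathway genes at this threshold lay between 3 and 5. After 75th percentile scaling 1 pair of genes (ABCB11 and SLC51A, r = 0.91) passed adjustment, and 0 pairs did with normexp or the authors' table. The cause of these changes was not tested. The dams were assigned to the groups at random and the labels give no pairs, so no paired analysis was run. CYP7A1, above background on few arrays, moved from -0.96 to -0.17 with normexp.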
